A study of Mus musculus with 6 samples.

Results

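The receptors of the epidermal growth factor (EGF) family, 4 of their ligands and 2 of their inhibitors were followed in epithelial cells of the mouse gonadal primordium, with and without the homeobox gene Emx2. The 10 genes, of 18194 with an annotated symbol of their own, were chosen by name: the receptors Egfr, Erbb2, Erbb3 and Erbb4, the ligands Ereg, Hbegf, Tgfa and Nrg1, and the inhibitors Errfi1 and Lrig1. Every probe set annotated with exactly 1 of these symbols was taken, which gave 23 of the 45101 probe sets on the array. The tissue came from fetuses at E10.5, with 3 pools labelled wild-type (+/+) and 3 labelled Emx2 KO (-/-). Each pool held epithelium cut by laser microdissection from frozen sections of 3 fetuses, and the primordium was located by staining GATA4 on some sections. The labels give neither strain nor sex, and give no litter for any pool, so the p-values measure the spread between pools. In bulk samples of this kind, fewer cells of a type and less RNA per cell cannot be told apart.

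EGF family ligands are made as membrane proteins that are released by proteolysis and bind receptors on the same or nearby cells. Ligand binding pairs the receptors: EGFR and ERBB4 bind ligand and signal, ERBB2 binds no known ligand and acts as the preferred partner, and ERBB3 binds neuregulins but has little kinase activity of its own. TGF alpha acts through EGFR, epiregulin and heparin-binding EGF through EGFR and ERBB4, and neuregulins through ERBB3 and ERBB4. ERRFI1 binds and blocks the EGFR kinase domain, and LRIG1 is a membrane protein that lowers receptor levels. EGFR is a receptor typical of epithelia, where its signal guides growth and cell shape.

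Values are array intensities scaled to a common level, with a floor of 7.99 before log2. A probe set was tested where its mean log2 value lay above that of the dimmest 40%, an intensity of 26.4, called the dim limit below. Of all probe sets 27022 were tested, and 1264 (4.68%) passed limma's test at an adjusted p of 0.05. The single Emx2 probe set read 1302 to 2120 for wild-type, against 1480 to 1746 for KO (adjusted p = 0.916). It therefore does not check the labels, and KO means the pools labelled so. Xist, the RNA of the inactive X chromosome, read 13.3 to 69.9 for wild-type, against 9321 to 9888 for KO at its probe set 1436936_s_at, so the sex of the fetuses and the genotype cannot be told apart. None of the 10 genes lies on the X or Y chromosome in RefSeq.

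Egfr, the receptor for EGF, rose strongly in the KO epithelium. Its brightest probe set, 1435888_at, read 27.7, 49.9 and 36.5 for wild-type, against 766, 597 and 876 for KO. The lowest KO pool was 12.0 times the highest wild-type pool. The means were 38.0 ± 11.2 and 746 ± 141 (SD, n = 3 each), a log2 fold change of 4.32 (SE 0.23, 95% confidence interval 3.82 to 4.82, limma adjusted p = 6.22e-07). The ratio of the means was 19.6.

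A further Egfr probe set, 1424932_at, gave nearly the same change under the floor of 7.99. It read 15.2, 17.3 and 17.1 for wild-type, against 315, 269 and 303 for KO. Every wild-type value lay under the dim limit and every KO value far above it. The log2 fold change was 4.16 (SE 0.22, limma adjusted p = 6.22e-07), or 17.9-fold. The size of this rise depended on how dim values were treated. Raising the floor to the 40th percentile gave 3.39, against 4.31 for 1435888_at. A pseudocount of 16 in place of any floor gave 3.26, against 3.82 for 1435888_at. Probe set 1424932_at was tested only because its KO values were high, so its place among the tested ones depends on the change itself. Among all tested probe sets, both Egfr probe sets ranked just below the 3 of Xist in size of rise, at ranks 4 and 5.

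The other Egfr probe sets showed smaller changes or little signal. Probe set 1460420_a_at read 78.6, 52.0 and 94.2 for wild-type, against 139, 152 and 184 for KO. It rose by 1.11 on the log2 scale (SE 0.24, limma adjusted p = 0.0183), without overlap of the groups. Probe set 1432647_at read 50.4, 53.0 and 41.5 against 132, 73.4 and 77.8. Its groups did not overlap either, with KO replicate 1 well above the other KO pools, but it did not pass (0.92, SE 0.27, adjusted p = 0.0785).

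The remaining 3 Egfr probe sets were too dim to be tested. Probe set 1451530_at read 16.4 to 20.9 for wild-type, against 15.6 to 24.6 for KO, although the annotation lists the same GenBank record for it and for 1424932_at. Likewise 1454313_at (3.90 to 30.0 and 6.10 to 8.89) shares its record with 1432647_at. Probe set 1457563_at lay under the floor in all 6 pools. The size of the Egfr change thus differed between probe sets, with log2 fold changes of 0.92 to 4.32 among the 4 tested. Where each probe set lies along the transcript was not analysed here.

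Both Egfr probe sets with the strong rise passed in each of the 6 fits with 1 pool left out, with log2 fold changes of 4.11 to 4.54 for 1435888_at and 4.10 to 4.23 for 1424932_at. Probe set 1460420_a_at passed in 2 of these 6. Its adjusted p was 0.0502 and 0.0513 with wild-type replicates 1 and 2 left out, and 0.0556 and 0.0974 with KO replicates 2 and 3 left out, within a range of 0.00529 to 0.209 over all alternatives.

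**Figure D1:**
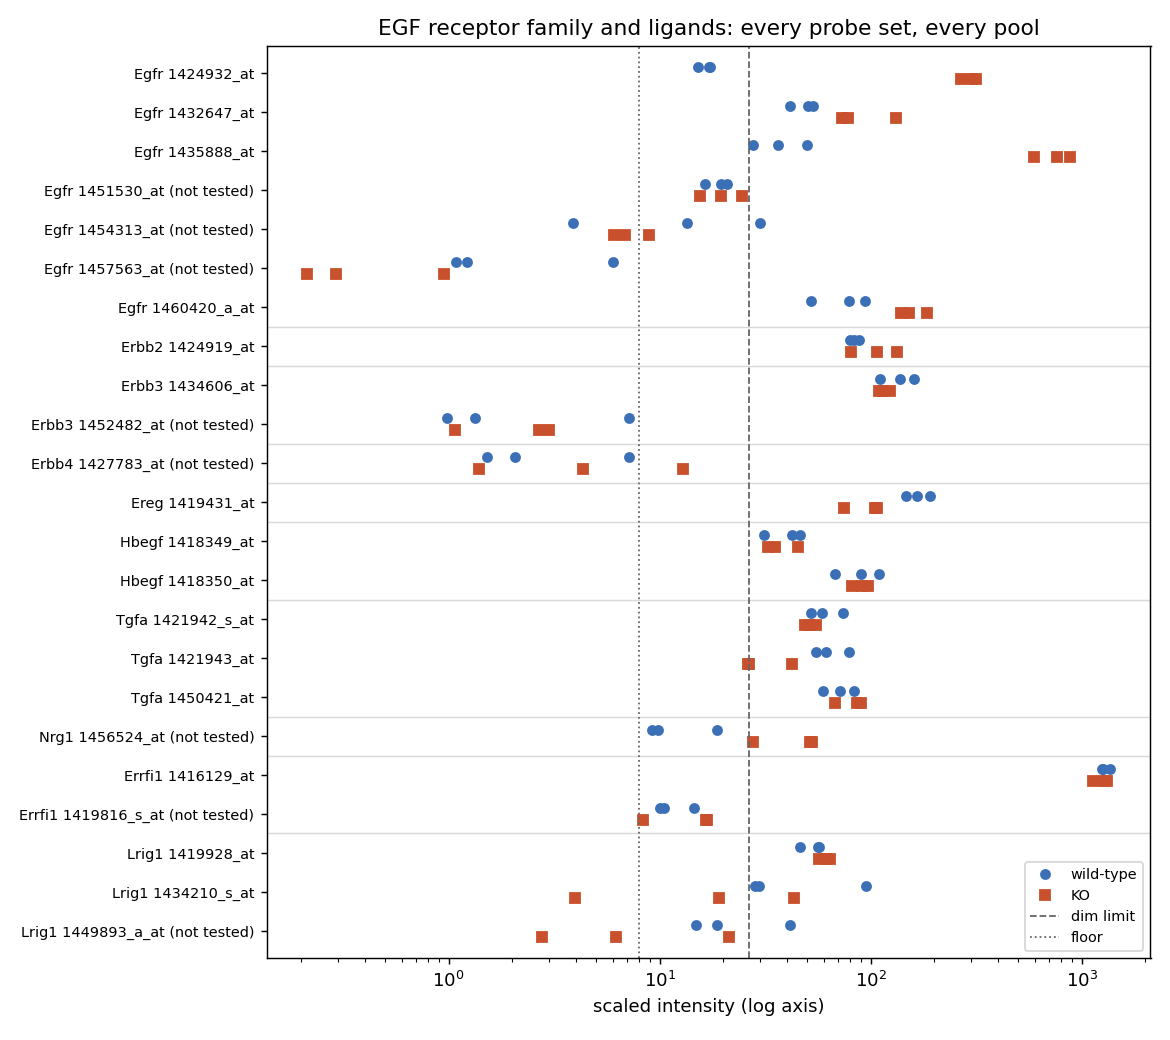
Scaled intensity (log axis) of the 23 probe sets of the 10 genes, with 1 circle for each wild-type pool and 1 square for each KO pool; the dashed line is the dim limit of 26.4 and the dotted line the floor of 7.99. The KO squares of Egfr 1435888_at (597 to 876) and 1424932_at (269 to 315) lie far to the right of the wild-type circles, whereas the symbols of Erbb2, Hbegf and Errfi1 overlap.

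Because Egfr changed most, the 250 bases before its start site are shown with those of Erbb2, its partner receptor on the same chromosome, which did not pass the test. The Egfr stretch is chr11:16751953-16752202 and the Erbb2 stretch chr11:98412234-98412483, both on the plus strand of GRCm38.p6 (sequences from RefSeq; 6 of the 10 members were matched in the promoter table used here). Capitals mark TAAT, the core motif of many homeodomain proteins, and GGGCGG, the core of Sp1 sites, on either strand (ATTA and CCGCCC on the other).
Egfr: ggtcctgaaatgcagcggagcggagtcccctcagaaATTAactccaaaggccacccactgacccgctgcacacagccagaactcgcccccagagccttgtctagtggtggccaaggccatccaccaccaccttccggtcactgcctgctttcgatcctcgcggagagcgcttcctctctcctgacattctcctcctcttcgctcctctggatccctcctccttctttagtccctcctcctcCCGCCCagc
Erbb2: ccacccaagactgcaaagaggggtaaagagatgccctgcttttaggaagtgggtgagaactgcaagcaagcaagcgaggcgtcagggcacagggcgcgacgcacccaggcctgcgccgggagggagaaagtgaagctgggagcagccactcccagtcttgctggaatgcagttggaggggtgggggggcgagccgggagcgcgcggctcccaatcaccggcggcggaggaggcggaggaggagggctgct
The Egfr stretch holds 1 TAAT match and 1 GGGCGG match, and the Erbb2 stretch holds neither. Among 32851 promoter stretches of this length, 54.9% hold TAAT and 32.7% hold GGGCGG. The longer homeodomain motif TAATTA, which contains TAAT and which 4.84% of all stretches hold, and TATAAA, the TATA box motif found in 12.4%, are in neither. The G and C content is 60.8% for Egfr and 66% for Erbb2, against a median of 52.4% over all stretches. These matches are a description of the sequence.

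The summed markers of mesenchyme and of endothelium read higher in the KO pools, as Egfr did. Among all genes read by their brightest probe set, 2.93% of 12315 tested were higher and 2.48% lower. Of 14 tested mesenchyme markers, 8 rose and 0 fell, and the summed intensity of all 15 was 14279 to 15815 for wild-type, against 24285 to 25532 for KO, a ratio of means of 1.66. Of 12 tested endothelial markers, 4 rose and 0 fell; 1 of the 4, Emcn, lay under the dim limit in every wild-type pool and so was tested only through its KO values. The sums of all 14 were 1656 to 2094 and 2571 to 2929 (ratio 1.43), while Pecam1 and Tie1 lay under the dim limit in every pool. Among the mesenchyme markers Tbx18, also a gene of the coelomic lining, rose most (518 ± 156 to 4897 ± 374). It carried a large part of the rise in the mesenchyme sum, whose means were 14999 and 24847. Pdgfra gave 1801 ± 110 and 1664 ± 98.6. Foxf1 read lower in the KO pools, with the groups just apart (90.9 ± 23.9 and 53.2 ± 12.9), but did not pass (limma adjusted p = 0.161). The sum of 15 markers of gonadal and coelomic epithelium overlapped between the groups (27590 to 30595 and 26859 to 30209), with 5 of 14 tested members higher and 3 lower, and Msln under the dim limit in every pool. The part of these tissues in the Egfr rise was not tested.

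Erbb2, the partner receptor without a ligand of its own, did not pass. It read 83.4, 87.7 and 79.7 for wild-type, against 81.0, 107 and 133 for KO. KO replicate 1 lay among the wild-type pools and the other KO pools above them. The log2 fold change was 0.33 (95% confidence interval −0.16 to 0.82, adjusted p = 0.511), so a rise of up to 1.76-fold is within the interval, but not a change of the size seen at Egfr 1435888_at.

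Erbb3, the neuregulin receptor best known in neural crest cells and their derivatives, also did not pass at its brighter probe set. Probe set 1434606_at read 160, 138 and 111 for wild-type, against 110, 114 and 124 for KO, and the groups overlapped (log2 fold change −0.22, interval −0.64 to 0.21, adjusted p = 0.642). Its other probe set, 1452482_at, lay under the floor in all pools. Neural crest markers were present at a low level: Sox10, a defining transcription factor of the crest, read 46.8 ± 14.5 and 39.7 ± 9.56. The sum of 8 crest markers was 532 to 613 for wild-type, against 348 to 478 for KO, with 1 of 5 tested members higher (Ednrb) and 1 lower (Dct), and Cdh19 under the dim limit in every pool. Dct, a gene of the melanocyte lineage, carried that fall (266 ± 44.4 and 23.8 ± 17.2): the other 7 summed to 288 to 306 for wild-type, against 327 to 470 for KO. Among those 7, Ednrb (48.8 ± 8.96 and 141 ± 27.0) carried the higher KO sums. Fabp7 (60.7 ± 30.1 and 90.7 ± 61.3) was high in KO replicate 2 alone, at 161 against 52.3 and 58.4 in KO replicates 1 and 3. Sox10, Foxd3 (17.9 ± 7.74 and 6.75 ± 3.84) and Ngfr (97.5 ± 34.2 and 66.8 ± 25.5) had lower KO means. The part of crest cells in the Erbb3 signal was not tested.

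Erbb4, the neuregulin receptor with an active kinase, gave little signal. Its only probe set read 2.07, 1.52 and 7.13 for wild-type, against 4.34, 12.9 and 1.39 for KO, so 5 of 6 values lay under the floor. It was not tested, and no difference was detectable at this signal. Amplification over 2 rounds favours the 3' end of a transcript, so a dim probe set can also reflect its position.

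Ereg, which encodes the EGFR ligand epiregulin, fell in the KO pools. It read 165, 190 and 147 for wild-type, against 105, 75.0 and 107 for KO. The lowest wild-type pool was 1.37 times the highest KO pool. The means were 167 ± 21.6 and 95.8 ± 18.0 (SD, n = 3 each), a log2 fold change of −0.81 (SE 0.21, interval −1.26 to −0.37, limma adjusted p = 0.0412), or 1.76-fold lower. The call was close to the threshold. It held in 1 of the 6 fits with 1 pool left out, and the adjusted p was 0.119 and 0.13 without wild-type replicates 1 and 2, and 0.0708, 0.159 and 0.0723 without KO replicates 1, 2 and 3. The log2 fold change stayed between −0.91 and −0.65 over all alternatives, and the adjusted p ranged from 0.0326 to 0.241.

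Tgfa, which encodes the EGFR ligand TGF alpha, was read by 3 probe sets that differed, although the annotation lists the same GenBank record for all of them. Probe set 1421943_at read 78.9, 61.2 and 54.8 for wild-type, against 26.2, 26.5 and 42.4 for KO, without overlap. It did not pass (log2 fold change −1.06, SE 0.30, adjusted p = 0.0637), except with the floor at the 40th percentile (adjusted p = 0.039, the lowest in a range up to 0.248). Probe set 1450421_at read 71.7, 59.2 and 83.1 against 90.3, 67.5 and 86.1, with a log2 fold change of 0.19 (adjusted p = 0.747). Probe set 1421942_s_at gave 61.9 ± 11.2 and 51.9 ± 3.19 (−0.24, adjusted p = 0.692). The groups of both these probe sets overlapped, and no direction can be given for Tgfa as a gene.

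Hbegf, which encodes heparin-binding EGF, did not pass at either probe set. Its brighter probe set, 1418350_at, read 109, 90.0 and 67.8 for wild-type, against 96.7, 90.5 and 81.2 for KO. The log2 fold change was 0.03 (interval −0.46 to 0.53, adjusted p = 0.964), and its sign turned under quantile normalization (−0.01). Probe set 1418349_at gave 39.8 ± 7.76 and 37.7 ± 6.69 (−0.07, interval −0.71 to 0.57, adjusted p = 0.935), and its sign turned without scaling (0.02). Changes larger than 1.48-fold upward or 1.63-fold downward lie outside the intervals of both.

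Nrg1, which encodes the ERBB3 and ERBB4 ligand neuregulin 1, read higher in all KO pools but was too dim to be tested. Its probe set read 18.7, 9.15 and 9.87 for wild-type, against 51.4, 27.8 and 52.9 for KO. All wild-type values lay under the dim limit and all KO values above it, and the lowest KO pool was 1.49 times the highest wild-type pool. The difference of mean log2 values was 1.83. With no filter on dim probe sets it was tested and did not pass (adjusted p = 0.191, within a range of 0.0446 to 0.285 over the alternatives that tested it). It passed only without wild-type replicate 3 (limma adjusted p = 0.0446), a fit that it entered through its KO values. The difference was 0.59 with the floor at the 40th percentile, so its size depends on the floor.

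Errfi1, the feedback inhibitor of the EGFR kinase, was bright and did not pass. Probe set 1416129_at read 1254, 1242 and 1366 for wild-type, against 1318, 1281 and 1129 for KO. The log2 fold change was −0.05 (SE 0.11, interval −0.28 to 0.18, adjusted p = 0.857), and its sign turned without scaling (0.04). A change of more than 1.22-fold downward or 1.13-fold upward lies outside this interval, the narrowest among the members. Its other probe set, 1419816_s_at, gave 11.7 ± 2.47 and 13.9 ± 4.85 and was not tested.

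Lrig1, the membrane protein that lowers receptor levels, did not pass, and its probe sets differed in sign. Probe set 1419928_at read 46.1, 56.5 and 57.1 for wild-type, against 64.2, 61.6 and 57.1 for KO, the groups meeting at the same rounded value (log2 fold change 0.20, interval −0.31 to 0.72, adjusted p = 0.738). Probe set 1434210_s_at read 95.0, 28.3 and 29.6 against 19.2, 43.2 and 3.96. Wild-type replicate 1 was far above and KO replicate 3 far below the others, and the interval was wide (−1.20, interval −2.47 to 0.08, adjusted p = 0.326). The dimmer 1449893_a_at (14.9 to 41.3 and 2.78 to 21.3) was not tested.

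**Figure D2:**
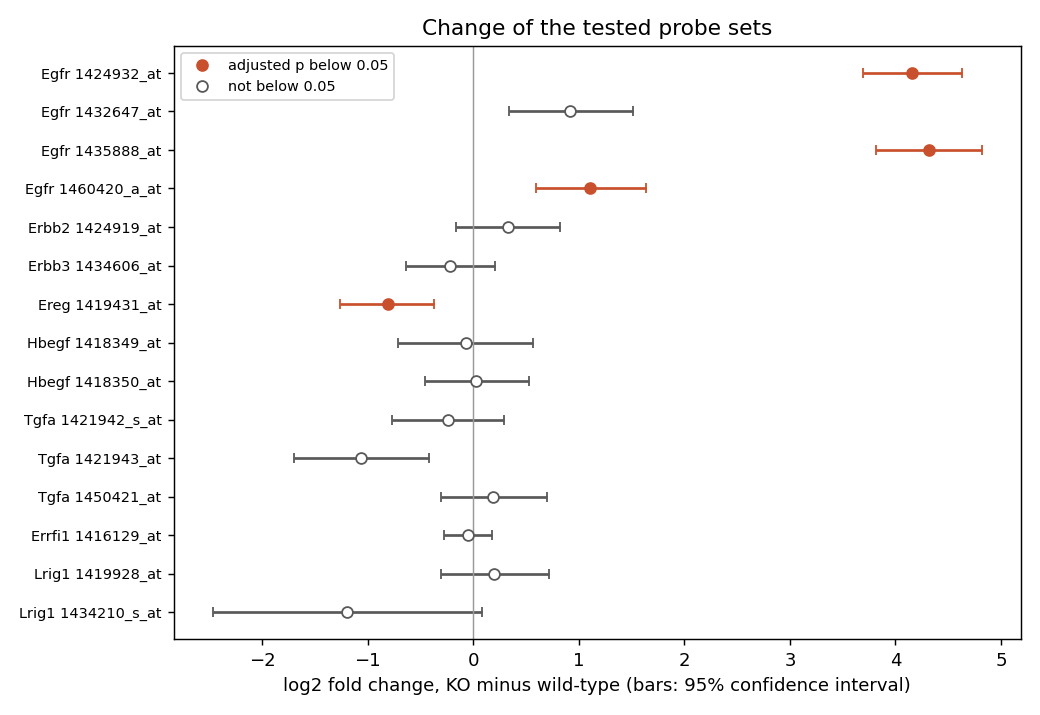
Log2 fold change, KO minus wild-type, of the 15 tested probe sets, with 95% confidence intervals from limma that are not adjusted for the number of probe sets tested; filled symbols passed at an adjusted p of 0.05. The symbols of Egfr 1424932_at and 1435888_at stand at 4.16 and 4.32, and those of the 3 Tgfa probe sets stand on both sides of 0.

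Of the 23 probe sets, 15 passed the filter on dim values, and they represent 8 of the 10 genes; Erbb4 and Nrg1 had none. Of the 15, 3 were called higher (all of them Egfr), against 2.75% of all tested probe sets, and 1 was called lower (Ereg), against 1.93%. The groups did not overlap in 7 of the 15, 4 of Egfr and 1 each of Lrig1, Ereg and Tgfa, where 22.0% of all tested did so. Egfr 1424932_at, among the 3 and among the 7, was tested only through its high KO values. Its place in these counts therefore depends on the change itself. Probe sets of 1 gene are not independent measurements. Egfr was included in the knowledge that it differs in these mutants.

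**Figure D3:**
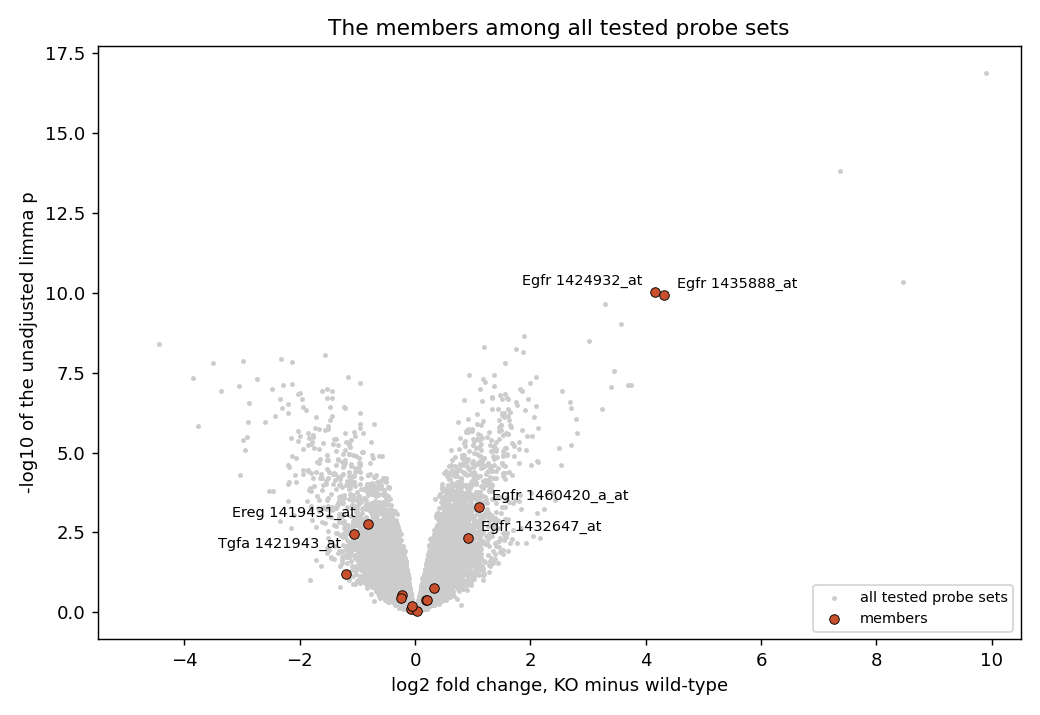
Log2 fold change, KO minus wild-type, against −log10 of the unadjusted limma p for all 27022 tested probe sets (grey) and the 15 tested members (filled). Egfr 1435888_at and 1424932_at lie above and to the right of nearly all others. The other members lie lower, with smaller changes, among them the called Egfr 1460420_a_at (1.11) and Ereg (−0.81).

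The remaining ligands of the family that were measured gave low signals. Areg, which encodes amphiregulin, had no probe set annotated with its symbol alone and was not read. Of 6 measured, 3 were tested and none passed (0 in limma's test, 0 with an unadjusted p under 0.05, and 0 in any alternative that tested them). Egf, the ligand that names the family, read 42.7, 41.7 and 40.5 for wild-type, against 43.3, 67.3 and 72.0 for KO (log2 fold change 0.51, adjusted p = 0.372). KO replicate 1 lay just above the wild-type pools and the other KO pools further above them. Btc, encoding betacellulin, read 23.0 to 47.1 and 23.7 to 55.2 (−0.05, adjusted p = 0.968). Nrg2, a neuregulin, read 46.4 to 65.8 and 42.7 to 82.5 (−0.04, adjusted p = 0.965). The signs of Btc and Nrg2 turned without scaling. Epgn, Nrg3 and Nrg4 lay under the dim limit in every pool.

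Genes that release the ligands from the membrane did not pass either: of 6 tested, 0 passed in limma's test and 2 had an unadjusted p under 0.05. An unadjusted p under 0.05 was common in that test, with at least 4621 of all 27022 tested probe sets having one. Adam17, the main sheddase of EGFR ligands, read 462 to 564 for wild-type, against 528 to 622 for KO (log2 fold change 0.16, adjusted p = 0.609). The lowest of the 6 p-values belonged to Rhbdf1, which supports the maturation of that sheddase (752, 717 and 625 against 836, 931 and 948; 0.38, adjusted p = 0.106), followed by the metalloprotease gene Adam12 (0.47, adjusted p = 0.252).

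Among genes of receptor trafficking and attenuation 2 of 26 rose and 0 fell. Over all tested genes 2.93% were higher and 2.48% lower, and the median log2 fold change was 0.14 in this list against −0.01 over all genes. Cav1, which encodes the coat protein of caveolae, membrane pits in which EGFR can reside, read 342, 352 and 333 for wild-type, against 1359, 1089 and 1404 for KO. It rose by 1.90 (SE 0.13, limma adjusted p = 7.59e-06) and passed in all 16 alternatives that tested it. Cblb, which encodes a ubiquitin ligase that marks active receptors for degradation, read 1048, 1028 and 1452 against 2285, 1824 and 1732. It rose by 0.74 (SE 0.15, adjusted p = 0.0108), and its other probe sets rose by 0.64 and 0.59. The call of its brightest probe set was lost without wild-type replicate 1 (adjusted p = 0.0626) and without KO replicate 1 (0.0534), in a range of 0.0012 to 0.229. The same pools differed in endothelial and mesenchyme markers, as given above, and both tissues carry caveolae; their part in the Cav1 rise was not tested.

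Among adaptors and proximal signalling genes 1 of 30 fell and 0 rose, with a median of −0.04. Over all tested genes 2.48% were lower and 2.93% higher, so the count in this list was near those shares. Eps8, which encodes an EGFR substrate that caps and bundles actin filaments, read 392, 340 and 366 for wild-type, against 134, 102 and 153 for KO. It fell by 1.51 (SE 0.18, limma adjusted p = 0.000358). Its probe set 1422823_at fell too (−1.67, adjusted p = 0.00107), and the dimmer 1425733_a_at gave −0.98 (adjusted p = 0.147). Jak1, a kinase of cytokine receptors and the next by p, gave 0.44 (adjusted p = 0.0571).

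Genes that respond to receptor signalling went both ways: of 20 tested, 2 rose and 2 fell, against 2.93% higher and 2.48% lower over all tested genes, with a median of 0.17. Emp1, a membrane protein gene induced by EGF in some cells, fell most, from 454, 401 and 348 in wild-type to 112, 78.7 and 122 in KO pools (−1.96, SE 0.20, limma adjusted p = 9.67e-05). Jun, a subunit of the AP-1 transcription factor, read 508, 410 and 574 against 256, 354 and 270 and fell by 0.76 (adjusted p = 0.0208); its other probe set gave −0.65 (adjusted p = 0.066). Dusp6, the phosphatase that turns off ERK, read 718, 566 and 814 against 996, 1062 and 1171 and rose by 0.64 (adjusted p = 0.0198). Myc read 93.5, 48.4 and 114 against 172, 181 and 158 and rose by 1.08 (adjusted p = 0.0434).

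With 1 pool left out, Emp1 and Eps8 passed in 6 of 6 fits, Dusp6 in 2, Jun in 2 and Myc in 1. Dusp6 was lost without wild-type replicates 1 and 2 and KO replicates 2 and 3, Jun without wild-type replicates 1 and 3 and KO replicates 1 and 3, and Myc without every pool but wild-type replicate 3. Without a filter on dim probe sets, 6 of the 7 called pathway genes did not pass: Eps8 (adjusted p = 0.0623, the highest of its alternatives, from 4.68e-05), Emp1 (0.0571, the highest, from 1.31e-08), Dusp6 and Jun (0.216 each), Cblb (0.229) and Myc (0.334). Without an intensity trend in the variance, Cblb (0.11), Dusp6 (0.117), Jun (0.101) and Myc (0.144) did not pass. Dusp6 (0.0791) and Jun (0.199) were also lost without scaling, and Myc (0.0577) under quantile normalization. The lowest adjusted p over the alternatives was 0.00717 for Dusp6, 0.0139 for Jun and 0.00608 for Myc.

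**Figure D4:**
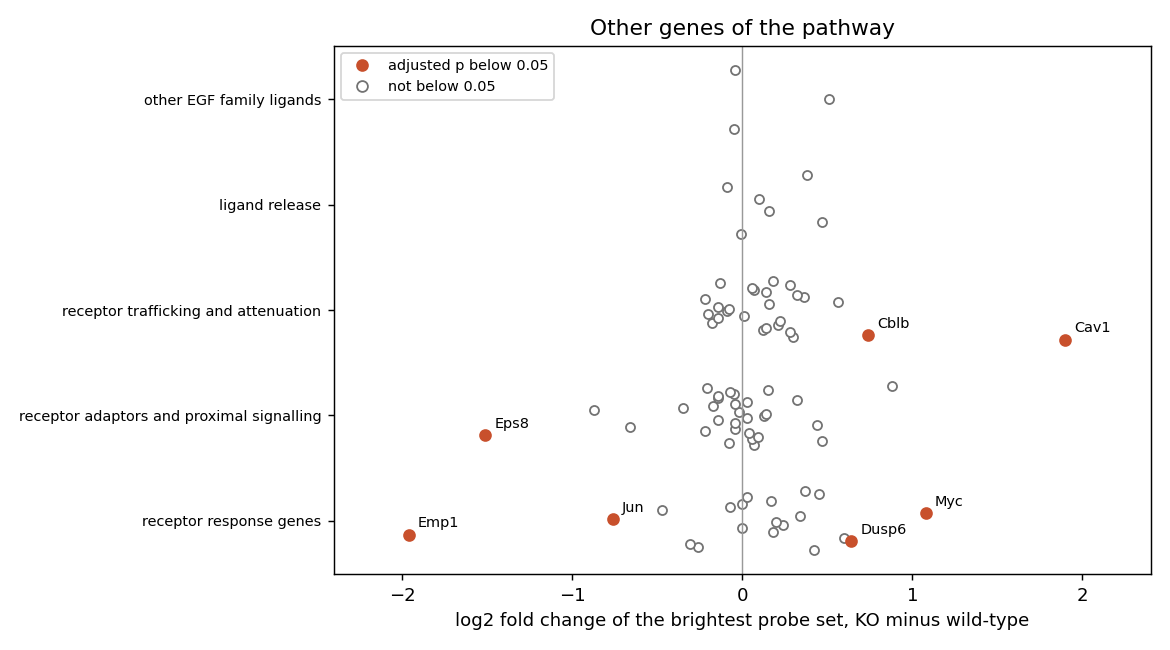
Log2 fold change, KO minus wild-type, of the brightest probe set of each tested gene in 5 lists of the pathway, with genes spread vertically within a list for legibility; filled, named symbols passed at an adjusted p of 0.05. Cav1 stands at 1.90 and Emp1 at −1.96, and most other genes lie near 0.

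The genes whose log2 values over the 6 arrays were most like those of Egfr 1435888_at, members left out, were Sgpp1, Man1a, Epb41l3, Lrrc1 and Zdhhc14. Sgpp1, a sphingosine-1-phosphate phosphatase gene, had r = 0.9967 and read 275, 310 and 304 for wild-type, against 807, 726 and 761 for KO. Man1a, a mannosidase gene of the Golgi, followed with r = 0.9966 (1858 ± 72.1 and 3359 ± 125). The other 3 had r of 0.9953, 0.9952 and 0.9936. The 6 arrays form 2 groups, so a gene that is clearly higher in KO with little spread comes near 1, and 998 tested probe sets had r of at least 0.9. Their rises were smaller than that of Egfr, with log2 fold changes of 0.68 to 1.37.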

How the data were processed

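RNA (15 ng per pool) was amplified over 2 rounds, biotin-labelled and hybridised to 1-channel arrays, per the labels' protocols. The deposited values are intensities on a linear scale, 1 per probe set and array; the submitters' processing notes name GCOS 1.2, and algorithm and scaling are not given in the sources used here. Deposited 2% trimmed means were 254 to 373, so each array was scaled to 309.2. Values under the 20th percentile (7.99) were set to it before log2. The 64 control probe sets and the dimmest 40% were left out. Groups were fitted with limma (version 3.58.1 under R 4.3.3; lmFit and eBayes with intensity trend, two-sided, Benjamini-Hochberg over 27022 probe sets); its adjusted p-values are printed, and the number of arrays, 3 a group, limits precision. Fold changes understate changes near the floor. The filter and the limma fit were tested on simulated data, without the scaling and the floor.

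Probe sets were named by the platform's annotation table (34958 with 1 symbol, 932 with several, 9211 with none). Members and gene lists were chosen with earlier results of these data known. Named beside the members were all other measured ligands, up to 4 called genes of each pathway list by size (filled to 2 by p), and the 5 genes most like Egfr. The labels use replicate numbers only to number the pools and state no pairing. Deviations of same-numbered pools correlated with r of −0.065, 0.040 and −0.051, and those of differently numbered pools with r of −0.077 to 0.127. With 3 pools a group these values cannot exclude a pairing. Alternatives were other scalings, floors, filters, variance models, a replicate block, a looser threshold, gene means and each pool left out.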

Additional observations from a re-analysis of the deposited data

How the results depend on the processing

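The rises of Egfr 1435888_at and 1424932_at passed in every alternative that tested them (16 and 15). Probe set 1424932_at entered the filtered fits only through its high KO values, and the filter of the lowest 60% left it out. With no filter its limma adjusted p was 0.00795. The counts of called probe sets, called member probe sets and called pathway genes were 1264, 4 and 7. They became 151, 2 and 1 with no filter on dim probe sets, and 541, 2 and 3 without an intensity trend. At an adjusted p threshold of 0.1, 1939 probe sets, 6 member probe sets and 11 pathway genes were called. With each pool left out in turn the counts were 721 to 1687, 2 to 5 and 3 to 9. With the replicate block they were 1160, 3 and 7, the lost member being Ereg (limma adjusted p = 0.0784). The pools are known to share only a number, and the lost call says nothing on the size of the change. The sign of uncalled changes near 0 turned without scaling for Hbegf 1418349_at (0.02), Errfi1 1416129_at (0.04), Nrg2 (0.05) and Btc (0.04), and for Hbegf 1418350_at under quantile normalization and array weights (−0.01 in each). It also turned with some pools left out, where the ranges were −0.24 to 0.04 for Hbegf 1418349_at, −0.15 to 0.19 for Hbegf 1418350_at, −0.10 to 0.01 for Errfi1, −0.31 to 0.16 for Nrg2 and −0.38 to 0.23 for Btc. The cause of these changes was not tested. Signal near the floor limits Erbb4, Nrg1 and the 3 dim Egfr probe sets.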

Other observations

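The genes next to Egfr and Ereg were read by a rule chosen after the data were seen: the nearest 2 tested protein-coding genes on each side in the RefSeq order, each by its brightest probe set. Of these 8, 0 passed limma's test and 1, Cnrip1, had an unadjusted p under 0.05. At least 4621 of all 27022 tested probe sets had an unadjusted p under 0.05 in that test. Beside Egfr, Cobl gave a log2 fold change of −0.33 (SE 0.42, adjusted p = 0.761), and Grb10, an adaptor of growth factor receptors, gave 0.00 (SE 0.08, adjusted p = 0.997). On its other side Plek gave 0.55 (SE 0.29, adjusted p = 0.367) and Cnrip1 0.37 (SE 0.16, adjusted p = 0.246). Beside Ereg, in a cluster of EGF family ligand genes, Btc gave −0.05, Parm1 0.28, Mthfd2l −0.12 and Cxcl1 0.04 (adjusted p from 0.392 to 0.968).

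Markers of other cell types were summed over scaled intensities, wild-type pools before KO pools; over all tested genes 2.93% were called higher and 2.48% lower. Sums were also taken without each list's brightest marker, a step chosen after the data were seen. Nephric duct and tubule markers summed to 1000 to 1118 and 780 to 969, with 2 of 5 tested lower (Pax8 and Lhx1, the second under the dim limit in every KO pool). Without Calb1 (541 ± 56.4 and 614 ± 118) the nephric sums were 489 to 512 and 276 to 302, and their ratio moved from 0.866 to 0.575. Primordial germ cell markers summed to 1441 to 1948 and 936 to 1170, with 3 of 7 lower. Of 5 tested gut and other endoderm markers, limma called 0. For 1 of them (Ttr) the unadjusted p was under 0.05, as for at least 4621 of all 27022 tested probe sets. Foxa2 lay under the dim limit in every pool. The sums of the endoderm markers were 477 to 2267 and 458 to 674. Without Afp these sums were 434 to 598 and 332 to 376, and their ratio moved from 0.477 to 0.717. Blood markers summed to 35813 to 37562 and 36016 to 37488, with 1 of 9 higher and Aif1 under the dim limit. Without Hbb-y the blood sums were 20857 to 23114 and 23127 to 23926, with the groups just apart and a ratio of 1.06. Skeletal and heart muscle markers summed to 2709 to 3544 and 3259 to 3566, with 1 of 6 higher and 2 lower, and Myod1, Myog and Myf5 under the dim limit; the ratio of these muscle sums was 1.07, and 0.945 without Tnni1. All 4 tested sex markers were called, Xist higher and Eif2s3y, Kdm5d and Uty lower.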
